A study of Homo sapiens with 12 samples.

Results

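The 9 genes described here carry insulin-like growth factor (IGF) and insulin signalling at the cell surface, and were taken by name from the 63568 genes of an RNA-seq table. They are the receptors IGF1R, INSR and IGF2R, the adaptors IRS1 and IRS2, and the binding proteins IGFBP2, IGFBP3, IGFBP4 and IGFBP5. All 9 are in the table. RNA came from LNCaP, an androgen-responsive cell line from a lymph node metastasis of prostate cancer, transfected either with a pool of non-targeting siRNA (si-NT) or with 1 of 2 siRNAs against SMARCA4, the gene for the chromatin remodelling ATPase BRG1. Cells were collected 72 h after transfection, or at 144 h after being split and transfected again at 72 h. At each time point there were 2 si-NT libraries and 4 BRG1 depleted libraries, 2 for each siRNA, which makes 12 libraries. The siRNAs are named 2 and 3 as in the deposited table, whose numbers cannot be tied to those of the labels. For 1 library at 72 h the title and the treatment label name different siRNAs, which leaves its group unchanged. The medium of all groups held serum, as the labels state, and insulin, as the study's methods state. A knockdown lowers the targeted mRNA without removing it, and 1 cell line was used.

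Insulin, IGF1 and IGF2 signal through the related tyrosine kinase receptors INSR and IGF1R, which phosphorylate the adaptors IRS1 and IRS2 and so activate PI3K, AKT and mTOR. The mannose 6-phosphate receptor IGF2R has no kinase and takes IGF2 to lysosomes for breakdown. The IGF binding proteins are secreted, hold IGFs away from or near the receptors, and several of them are known to respond to androgen or to change in prostate cancer.

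The knockdown was present in every library that should carry it. SMARCA4 stood at 73.44 to 106.59 TPM (the deposited unit, reads per transcript length scaled to the same total in each library) in the 4 si-NT libraries and at 11.42 to 21.70 TPM in the 8 BRG1 depleted libraries. In the study's Western blots BRG1 protein was reduced further at 144 h than at 72 h, so the time points also differ in depth of depletion. The LNCaP markers KLK3, HOXB13, FOLH1, KRT8 and KRT18 were at 118.37 TPM or more in all libraries. The markers of other cell types KRT5, KRT14, TP63, DCN, COL1A2 and PTPRC reached at most 0.33 TPM, whereas VIM was at 53.71 to 96.42 TPM and COL1A1 at 3.10 to 9.11 TPM, with overlapping groups at both time points. TPM keeps no read depth, so depth is unknown and precision rests on the spread between libraries, which are not stated to come from separate experiments.

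IGFBP2 and IGF2R were by far the most abundant of the 9 genes. In si-NT cells of both time points together, IGFBP2 stood at 117 ± 3.74 TPM (SD, n = 4) and IGF2R at 58.5 ± 6.63 TPM. A second tier lay an order of magnitude lower, with IGFBP3 at 5.52 ± 0.753 TPM, IGFBP5 at 5.34 ± 1.64 TPM, INSR at 4.52 ± 0.429 TPM and IGF1R at 3.27 ± 0.935 TPM. Neighbours within this tier overlapped in their libraries, so the order of neighbours is not resolved. The ends of the tier did not overlap, with IGFBP3 at 4.85 to 6.52 TPM and IGF1R at 2.78 to 4.67 TPM in the si-NT libraries. IRS1 stood at 1.16 ± 0.297 TPM, and IRS2 at 0.403 ± 0.134 TPM and IGFBP4 at 0.135 ± 0.127 TPM were under 1 TPM in all 12 libraries. A gene was tested where 2 or more libraries had at least 1 TPM, which left out IRS2 and IGFBP4 and kept the other 7. The mean level of IGFBP2 was above that of 94.8% of all 16337 tested genes.

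**Figure D1:**
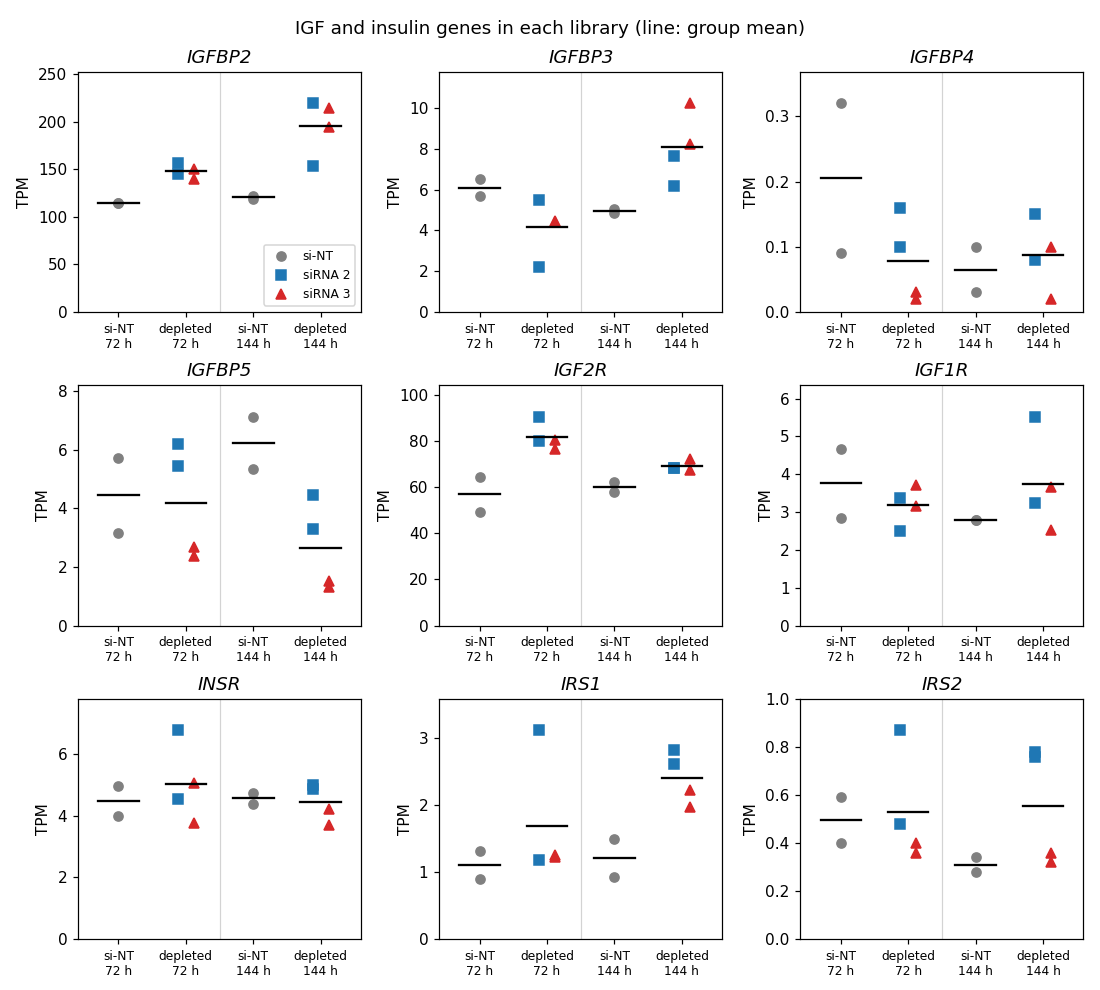
TPM of the 9 genes in each of the 12 libraries, with each vertical axis starting at 0. Grey circles are si-NT, blue squares siRNA 2, red triangles siRNA 3, and black lines group means; IGFBP2 lies at 114.08 to 122.23 TPM in the si-NT libraries and at 139.77 to 219.25 TPM in the BRG1 depleted ones.

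Of the 9 genes, 2 are next to each other in the genome (coordinates are GRCh37, from GENCODE release 44 lifted to that build). IGFBP2 (chr2:217497551-217529159, plus strand) and IGFBP5 (chr2:217536828-217560272, minus strand) are neighbours that point towards each other. Their ends are 7668 bases apart, with no other annotated gene lying wholly between them. IRS1 is elsewhere on the same chromosome (chr2:227596028-227664536, minus). IGFBP3 (chr7:45951844-45961473, minus) has IGFBP1 as its neighbour, 18584 bases away, and IGFBP1 was at or under 0.04 TPM in all libraries. IGF1R is at chr15:99191768-99507759 on the plus strand, INSR at chr19:7112266-7294425 on the minus strand, IGF2R at chr6:160390114-160534539 on the plus strand, IRS2 at chr13:110405042-110438930 on the minus strand and IGFBP4 at chr17:38599702-38613977 on the plus strand. Of the annotated genes that overlap them and are in the table, CHP1P2 within IGF2R alone was above 0, at 0.72 to 2.14 TPM.

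The promoters of the 3 binding protein genes whose libraries separated at a time point are shown because 2 of them, IGFBP2 and IGFBP5, are adjacent and separated from the controls in opposite directions at 144 h. Each line is the 250 bases before the start of the gene's canonical GENCODE transcript, read 5′ to 3′ on the gene's strand from GRCh37, with CpG dinucleotides in capitals. The windows are chr2:217497893-217498142 (plus) for IGFBP2, chr7:45960872-45961121 (minus) for IGFBP3 and chr2:217560273-217560522 (minus) for IGFBP5. The IGFBP2 and IGFBP3 windows lie within the annotated gene, since other annotated transcripts start further upstream, whereas the IGFBP5 window lies outside its gene.
IGFBP2: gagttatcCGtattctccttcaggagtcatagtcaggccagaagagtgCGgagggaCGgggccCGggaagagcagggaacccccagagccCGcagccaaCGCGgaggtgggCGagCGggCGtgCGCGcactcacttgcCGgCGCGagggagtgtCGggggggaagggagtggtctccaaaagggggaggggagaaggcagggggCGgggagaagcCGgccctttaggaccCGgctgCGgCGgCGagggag
IGFBP3: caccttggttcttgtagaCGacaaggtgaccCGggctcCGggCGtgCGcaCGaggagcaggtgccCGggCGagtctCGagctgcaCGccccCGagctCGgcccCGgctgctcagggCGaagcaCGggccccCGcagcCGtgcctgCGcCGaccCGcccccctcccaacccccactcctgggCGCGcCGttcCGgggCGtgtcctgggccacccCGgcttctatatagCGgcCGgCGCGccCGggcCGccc
IGFBP5: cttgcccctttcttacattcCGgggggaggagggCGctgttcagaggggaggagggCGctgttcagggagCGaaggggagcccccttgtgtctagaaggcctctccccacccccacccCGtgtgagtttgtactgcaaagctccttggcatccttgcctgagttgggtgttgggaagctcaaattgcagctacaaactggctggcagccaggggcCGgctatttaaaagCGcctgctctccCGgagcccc
IGFBP5 held 8 CpGs in this window, fewer than IGFBP2 with 22 and IGFBP3 with 32, and the median over 19862 protein-coding genes was 18. Its count was above that of 26% of those genes, while IGFBP2 stood above 60.3% and IGFBP3 above 86.6%. The other 6 genes had 24 to 48 CpGs, with IGF1R the richest at 48. Among 3 motifs searched on both strands, the exact TATA box string (TATAAA, in 9.26% of all windows) was found in IGFBP4 alone. Only exact matches were searched, so similar strings were not counted, such as tatttaaa in the IGFBP5 window and tatata in the IGFBP3 window. The forkhead motif (TGTTTAC, 2.06%) and the AP-1 motif (TGANTCA, 4.7%) were in none of the 9 windows. All of these genes except IRS2 and IGFBP4 have more than 1 annotated start, and gene-level TPM does not tell which start was used.

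Early loss of BRG1, at 72 h, was accompanied by higher IGF2R and by no other call among the 7 tested genes. A gene was called at a Benjamini-Hochberg adjusted p under 0.05 in limma's fit of log2(TPM + 1) over all 12 libraries, so fold changes are on that scale and understate the change of low genes. IGF2R was called higher (1 of 7 tested genes) beside 1.13% of all tested genes, and 0 of 7 were called lower beside 0.557%. At an unadjusted p under 0.05 there were 2 of 7, IGF2R and IGFBP2, beside 2339 of all 16337 tested genes.

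IGF2R, the receptor that clears IGF2, stood at 49.45 and 64.30 TPM in the si-NT libraries at 72 h. With siRNA 2 it was at 79.91 and 90.61 TPM, and with siRNA 3 at 76.57 and 80.69 TPM, so all 4 BRG1 depleted libraries were above both controls. In bulk RNA, more cells that express a gene and more of its RNA per cell cannot be told apart. The log2 fold change was 0.53 ± 0.11 (SE; 95% interval 0.29 to 0.76; limma adjusted p = 0.0343). This call rests on a narrow margin. It held in 9 of 23 alternative settings, and in 3 of the 12 fits that left out 1 library. Without si-NT replicate 1 of 72 h, the lowest library, the log2 fold change was 0.34 (limma adjusted p = 0.245), and without si-NT replicate 2 of 72 h it was 0.71, past the limit. The other fits that lost the call left out any other 72 h library, either si-NT library of 144 h, or the first library of either siRNA at 144 h, with log2 fold changes of 0.48 to 0.56 and limma adjusted p of 0.0523 to 0.0779.

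At 144 h IGF2R was at 57.88 and 62.49 TPM in si-NT cells and at 68.17, 68.23, 72.20 and 67.58 TPM in BRG1 depleted cells. The groups did not overlap, but they stood closer together than at 72 h. The log2 fold change was 0.20 (95% interval -0.039 to 0.43; limma adjusted p = 0.211). Its difference from the change at 72 h was -0.33 ± 0.15 (95% interval -0.66 to -0.0014; limma unadjusted p = 0.0492, adjusted p = 0.419). The smaller value at 144 h therefore did not pass the adjustment over all genes.

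IGF1R and INSR, the signalling receptors, were not called at either time point. IGF1R ranged from 2.51 to 5.52 TPM over the 12 libraries and INSR from 3.70 to 6.77 TPM, with overlap between the groups at both time points. The log2 fold changes of IGF1R were -0.17 (95% interval -0.68 to 0.34) at 72 h and 0.29 (-0.22 to 0.80) at 144 h. Those of INSR were 0.12 (-0.28 to 0.52) and -0.037 (-0.44 to 0.37). The intervals leave room for a change of more than 0.3 on the log2 scale in either direction for INSR at 144 h, so equality was not shown. Of the summed TPM of the 3 receptors, IGF2R made up 85.1% to 92.1% in the 12 libraries.

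**Figure D2:**
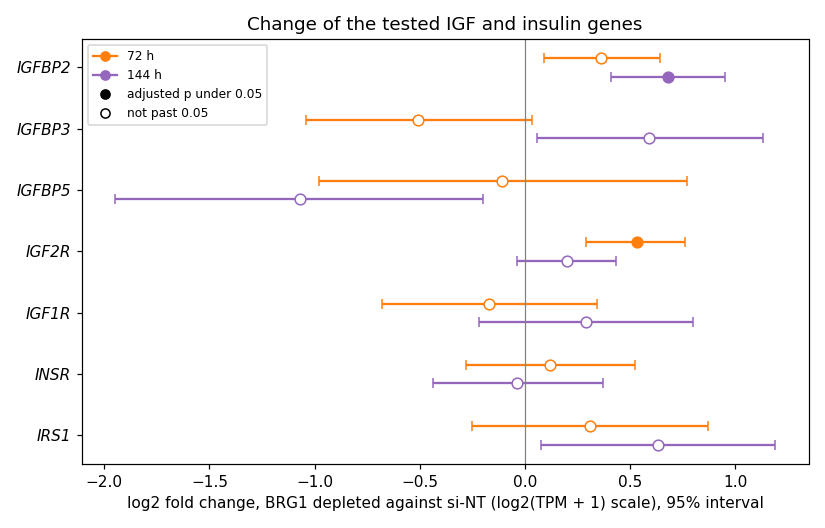
Log2 fold change of BRG1 depleted against si-NT libraries for the 7 tested genes at 72 h (orange) and 144 h (purple), on the log2(TPM + 1) scale, with 95% intervals from limma. Filled points passed an adjusted p of 0.05, which were IGF2R at 72 h (0.53) and IGFBP2 at 144 h (0.68).

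Prolonged loss of BRG1, at 144 h, was accompanied by higher IGFBP2, the binding protein that these cells express most. IGFBP2 was the 1 of 7 tested genes called higher, beside 13.6% of all tested genes, and 0 of 7 were called lower beside 10.8%. A single call of 7 is near that background, so the count says nothing particular about these genes. At an unadjusted p under 0.05 there were 4 of 7 (IRS1, IGFBP2, IGFBP3 and IGFBP5), beside 6013 of all 16337 tested genes. Such values were therefore common in the whole table. With the libraries of both siRNAs as 1 group, none of the 7 was beyond 1.5 on the log2 scale at either time point.

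IGFBP2 stood at 114.90 and 114.08 TPM in si-NT cells at 72 h and at 118.61 and 122.23 TPM at 144 h. The 4 controls were close to each other. With siRNA 2 it was at 145.13 and 156.31 TPM at 72 h and at 153.41 and 219.25 TPM at 144 h. With siRNA 3 it was at 139.77 and 150.14 TPM, then 194.68 and 214.71 TPM. All 8 BRG1 depleted libraries were above all 4 controls. The log2 fold change at 72 h was 0.36 ± 0.12 (SE), with a limma adjusted p of 0.189. At 144 h it was 0.68 ± 0.12 (95% interval 0.41 to 0.95; limma adjusted p = 0.00303), a 1.60-fold rise. The 144 h call held in 22 of 23 alternatives and in all 12 fits that left out 1 library, with log2 fold changes from 0.62 to 0.79 in the latter. The exception was scaling of TPM to the added ERCC spike-in RNA, under which it was 0.28 (limma adjusted p = 0.584). Each siRNA alone gave the same direction at 144 h, with 0.60 for siRNA 2 (limma adjusted p = 0.0189) and 0.76 for siRNA 3 (limma adjusted p = 0.00845). Either call was lost without 1 of the si-NT libraries of 144 h (0.58 to 0.78, limma adjusted p = 0.0517 to 0.0905) or without replicate 2 of that siRNA at 144 h (0.35 and 0.69, limma adjusted p = 0.0818 and 0.0669). On the spike-in scale both calls were lost too (0.43 for siRNA 2 and 0.12 for siRNA 3, limma adjusted p = 0.632 and 0.788). The siRNA 2 call was also lost with the libraries of 144 h alone (0.60, limma adjusted p = 0.0522). The difference between the siRNAs was 0.16 (95% interval -0.17 to 0.48).

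IGFBP2 also made up nearly all of the binding protein mRNA. Of the summed TPM of IGFBP1 to IGFBP7, its share was 90% to 92.7% in the 4 si-NT libraries and 92.6% to 95.8% in the 8 BRG1 depleted libraries. The sum itself was 124 to 134 TPM in si-NT cells, 147 to 167 TPM in BRG1 depleted cells at 72 h and 166 to 229 TPM at 144 h.

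IGFBP3, the main carrier of IGFs in blood, was the only one of the 7 tested genes whose BRG1 depleted libraries all lay on opposite sides of the controls at the different time points. In si-NT cells it was at 5.66 and 6.52 TPM at 72 h and at 4.85 and 5.04 TPM at 144 h. In BRG1 depleted cells it was at 2.23, 5.51, 4.44 and 4.39 TPM at 72 h, all below both controls. At 144 h it was at 7.65, 6.19, 8.24 and 10.23 TPM, all above both controls. The log2 fold changes were -0.51 ± 0.25 (SE) at 72 h and 0.59 ± 0.25 at 144 h, neither past the limit (limma adjusted p = 0.384 and 0.102). Without siRNA 2 replicate 1 of 72 h, the lowest library, the 144 h value had a limma adjusted p of 0.029. Their difference was 1.10 ± 0.35, with an unadjusted p of 0.00858 and a limma adjusted p of 0.302. Among the 7 genes 0 were called for this difference, beside 0.0184% of all tested genes. IGFBP3 and IGF2R had an unadjusted p under 0.05, beside 1943 of all 16337 tested genes.

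Within BRG1 depleted cells, a comparison chosen after seeing the data, IGFBP3 was the 1 of 7 genes called between 144 h and 72 h, beside 4.27% of all tested genes. It was higher at 144 h by 0.85 ± 0.20 on the log2 scale (limma adjusted p = 0.0385). That call held in 10 of 20 alternatives. It was lost in 8 of the 12 fits that left out 1 library, which were those without any 1 of the 4 siRNA 3 libraries, without either si-NT library of 144 h, or without siRNA 2 replicate 1 of 72 h or of 144 h (0.64 to 0.89, limma adjusted p = 0.0525 to 0.0973). In si-NT cells IGFBP3 was at -0.25 between 144 h and 72 h (95% interval -0.87 to 0.37). In those control cells limma called 0 of the 7 genes, with 0 also at an unadjusted p under 0.05. Over all genes tested it called 0%, although 671 of 16337 had an unadjusted p under 0.05.

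IGFBP5, the neighbour of IGFBP2, was at 3.16 and 5.73 TPM in si-NT cells at 72 h and at 5.35 and 7.13 TPM at 144 h. With siRNA 2 it was at 6.20 and 5.44 TPM at 72 h and at 4.47 and 3.29 TPM at 144 h. With siRNA 3 it was at 2.39 and 2.68 TPM at 72 h and at 1.52 and 1.31 TPM at 144 h. The siRNA 3 libraries were the lowest at both time points, and at 144 h all 4 BRG1 depleted libraries lay below both controls. For both siRNAs together the log2 fold change was -0.11 at 72 h (95% interval -0.98 to 0.77) and -1.07 ± 0.40 at 144 h (limma adjusted p = 0.072). Where each siRNA had a group of its own in the fit, the same -1.07 at 144 h had a limma adjusted p of 0.00579, since the spread between the siRNAs then no longer counted as error. Without siRNA 2 replicate 1 of 144 h it was -1.30 (limma adjusted p = 0.0376).

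IGFBP5 was the one gene of the 7 whose response differed between the siRNAs at an unadjusted p under 0.05. Of all 16337 tested genes, 1361 did so at 72 h and 2175 at 144 h. At 144 h it fell by 1.57 on the log2 scale with siRNA 3 (95% interval -2.11 to -1.04; limma adjusted p = 0.00327), and with siRNA 2 it stood at -0.57 (-1.10 to -0.036; limma adjusted p = 0.118). The siRNA 3 value kept an adjusted p under 0.05 in all 20 alternatives, between -2.05 and -1.40, spike-in scaling included. The siRNA 3 minus siRNA 2 difference was -1.01 ± 0.24 at 144 h (limma adjusted p = 0.141) and -0.95 ± 0.24 at 72 h (limma adjusted p = 0.285). After adjustment, 0 of the 7 genes differed between the siRNAs at either time point, beside 0.141% of all tested genes at 72 h and 0.331% at 144 h. For the other 6 genes the difference at 144 h ran from -0.37 for IGF1R to 0.37 for IGFBP3, each with an interval that included 0.

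**Figure D3:**
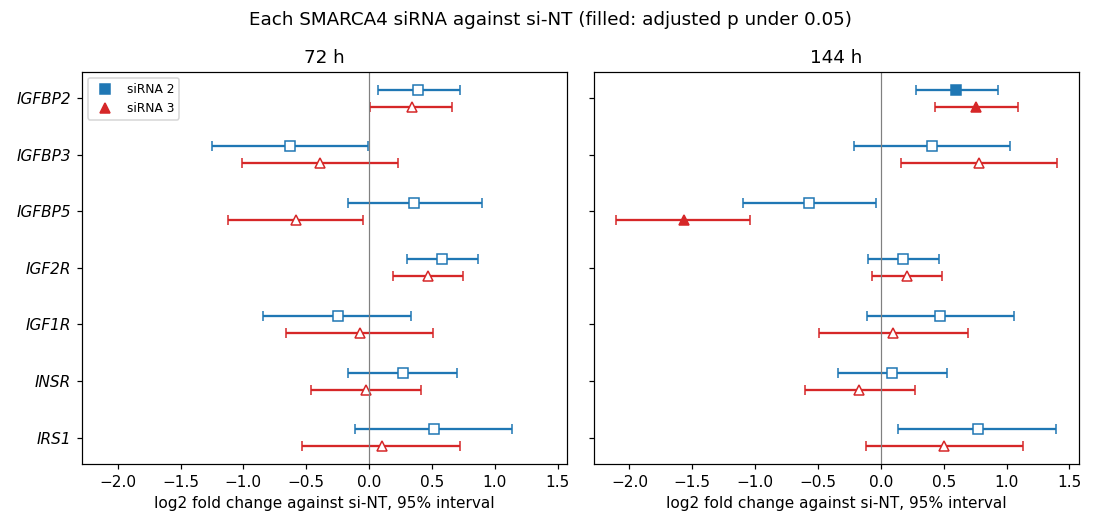
Log2 fold change against si-NT for each SMARCA4 siRNA (blue squares, siRNA 2; red triangles, siRNA 3) at 72 h and 144 h, with 95% intervals from limma on the log2(TPM + 1) scale. Filled points passed an adjusted p of 0.05: IGFBP2 with both siRNAs and IGFBP5 with siRNA 3 (-1.57), all at 144 h.

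The ratio of IGFBP2 to IGFBP5 shows both movements at once. It was 22.2 and 17.1 in the si-NT libraries at 144 h and 34.3, 66.6, 128 and 164 in the BRG1 depleted libraries, where the last values are those of siRNA 3. At 72 h it was 36.4 and 19.9 in si-NT cells, 23.4 and 28.7 with siRNA 2 and 58.5 and 56.0 with siRNA 3. These ratios are a description and were not tested.

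The adaptors were expressed at low levels, and IRS1 was the more abundant in every library, by 2.23-fold to 6.19-fold. IRS1 was at 0.89 and 1.32 TPM in si-NT cells at 72 h and at 1.18, 3.12, 1.23 and 1.25 TPM in BRG1 depleted cells, where siRNA 2 replicate 2 stood apart. At 144 h it was at 1.49 and 0.92 TPM in si-NT cells and at 2.62, 2.82, 2.22 and 1.98 TPM in BRG1 depleted cells, with no overlap. The log2 fold changes were 0.31 (95% interval -0.25 to 0.87) and 0.63 ± 0.26 (0.075 to 1.19; limma adjusted p = 0.093). The 144 h value passed the limit in 3 of 22 alternatives, among them the fit without the siRNA 2 replicate 2 library of 72 h (limma adjusted p = 0.0202). IRS2, which was not tested, was at 0.34 and 0.28 TPM in si-NT cells at 144 h, at 0.78 and 0.76 TPM with siRNA 2 and at 0.36 and 0.32 TPM with siRNA 3. IGFBP4 never exceeded 0.32 TPM, and its groups overlapped at both time points.

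Counting libraries rather than calls, 3 of the 7 tested genes at 72 h (IGF2R and IGFBP2 higher, IGFBP3 lower) had no overlap between the 4 BRG1 depleted and the 2 si-NT libraries, beside 23.3% of all tested genes. At 144 h there were 5 (IGF2R, IRS1, IGFBP2 and IGFBP3 higher, IGFBP5 lower), beside 48.6%. Such separation was therefore common in the whole table. The median log2 fold change of the 7 genes was 0.12 at 72 h and 0.29 at 144 h, beside 0.055 and 0.026 over all tested genes.

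The added spike-in RNA gave another scale, and the study's methods describe normalising read counts with these spike-ins, a step that the deposited TPM scale does not keep. Their share of a library was 0.805% to 1.97% of TPM, and dividing by it moved the median change of all tested genes to -0.11 at 72 h and -0.31 at 144 h. On that scale neither IGF2R at 72 h (0.34) nor IGFBP2 at 144 h (0.28) was called. There IGF2R at 144 h turned from 0.20 to -0.20, IGF1R at 144 h from 0.29 to -0.0051 and INSR at 72 h from 0.12 to -0.042. Relative to the median of all tested genes, IGFBP2 at 144 h was at 0.66 on the TPM scale and at 0.59 on the spike-in scale, and IGFBP5 at -1.10 and -1.05. Relative to that median the scales gave close values for these genes, while the sign of small changes depended on the scale.

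**Figure D4:**
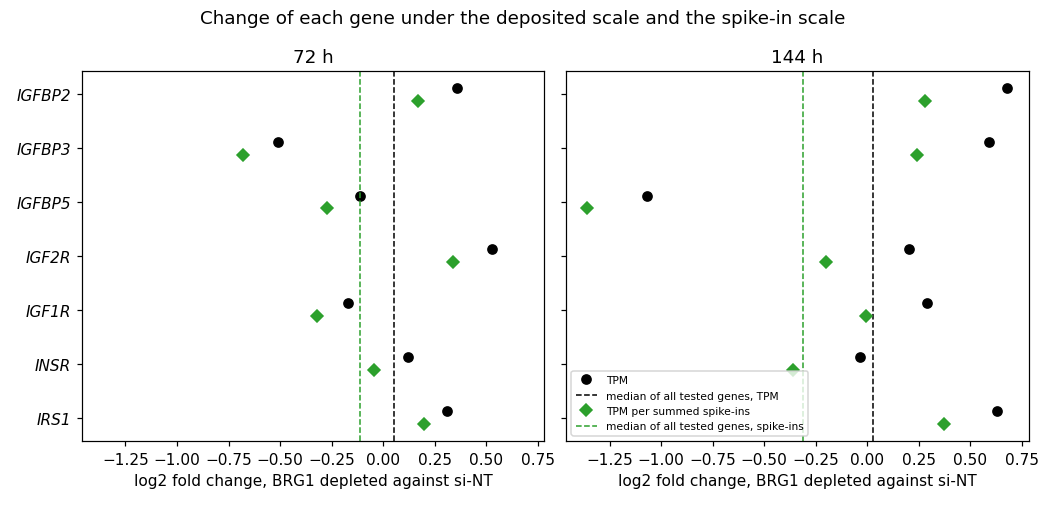
Log2 fold change of the 7 tested genes at 72 h and 144 h from TPM (black circles) and from TPM divided by the summed spike-ins (green diamonds). Dashed lines mark the median of all tested genes, 0.055 and 0.026 on the TPM scale and -0.11 and -0.31 on the spike-in scale.

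Further genes of the pathway were followed in 5 lists of 62 genes, of which 48 passed the filter. At 72 h 3 rose, among them PIK3CB and DEPTOR, and 0 fell. At 144 h 7 rose and 5 fell, and 36 did not pass the test. At 144 h these counts are close to the shares of all tested genes given above. At 72 h the 3 of 48 higher were a larger share than the 1.13% of all tested genes, and that count ran from 0 to 7 over the alternatives, with 0 on the spike-in scale. The medians were 0.089 and 0.11 beside those of all tested genes.

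At the start of the pathway, the ligand gene INS was listed at 0 TPM in all 12 libraries. IGF1 was at 0.40 to 1.88 TPM and IGF2 at 0.09 to 0.40 TPM, values given here after they were seen. IGF1 had log2 fold changes of -0.24 (95% interval -0.70 to 0.22) and -0.25 (-0.71 to 0.21). FURIN, the convertase that cleaves the precursors of both INSR and IGF1R, rose at 144 h from 7.09 and 4.29 TPM in si-NT cells to 15.31, 15.89, 15.07 and 18.77 TPM. Its log2 fold change was 1.39 ± 0.22 (limma adjusted p = 0.00149). STC1, a stanniocalcin that inhibits the IGFBP protease PAPP-A, fell from 7.10 and 3.84 TPM to 1.64, 1.97, 1.35 and 1.14 TPM. Its log2 fold change was -1.32 ± 0.35 (limma adjusted p = 0.0185), and -0.95 (limma adjusted p = 0.185) without si-NT replicate 1 of 144 h. The protease gene itself, PAPPA, was listed at 0 TPM in all libraries. Of the 4 tested genes in this list, IGF1 and STC2 were the ones not called. ENPP1, a membrane enzyme known to inhibit the insulin receptor, was the only one of 13 tested receptor-proximal genes called at 144 h, at -0.92 ± 0.17 (limma adjusted p = 0.00299). Of all tested genes, 13.6% were called higher and 10.8% lower at that time.

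In the PI3K, AKT and FOXO list, 3 of 17 tested genes rose and 1 fell at 144 h, beside 13.6% and 10.8% of all tested genes. PIK3CB, the catalytic p110-beta subunit, was at 41.85 and 42.08 TPM in si-NT cells and at 103.24 to 125.77 TPM in BRG1 depleted cells (log2 fold change 1.43 ± 0.12, limma adjusted p = 3.59e-05). It had risen already at 72 h, from 37.10 and 44.65 TPM to between 81.92 and 105.71 TPM (1.16 ± 0.12, limma adjusted p = 0.00158). PIK3CD, the p110-delta subunit, rose by 1.02 ± 0.16 at 144 h (limma adjusted p = 0.00128). PIK3R1, the p85-alpha regulatory subunit that binds phosphorylated IRS proteins, went the other way, from 35.12 and 27.88 TPM to 14.29 to 18.20 TPM (-0.90 ± 0.15, limma adjusted p = 0.00189). FOXO1, a transcription factor held out of the nucleus by AKT, rose by 0.53 ± 0.12 (limma adjusted p = 0.0105).

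In the mTOR arm, 3 of 13 tested genes rose and 1 fell at 144 h, beside 13.6% and 10.8% of all tested genes. MTOR rose by 0.66 ± 0.12 (limma adjusted p = 0.00255) and its inhibitor DEPTOR by 0.80 ± 0.16 (limma adjusted p = 0.0053), after 0.93 ± 0.16 at 72 h (limma adjusted p = 0.0206). TSC2, which restrains mTOR through RHEB, rose by 0.43 ± 0.11 (limma adjusted p = 0.0161). EIF4EBP1, a repressor of translation that mTOR inactivates, fell from 278.15 and 273.22 TPM to between 139.19 and 191.37 TPM (-0.79 ± 0.12, limma adjusted p = 0.00117). IGF2BP3, an RNA-binding protein that binds IGF2 mRNA, was the 1 tested gene of its family and fell by 0.85 ± 0.20 (limma adjusted p = 0.0106).

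The 12 calls at 144 h kept their sign in every alternative run, but not all kept their side of the threshold. On the spike-in scale the 5 genes that fell at 144 h (STC1, ENPP1, PIK3R1, EIF4EBP1 and IGF2BP3) stayed past the limit, while the 7 that rose kept their sign without passing it, from 0.03 for TSC2 to 1.04 for PIK3CB. Without si-NT replicate 1 of 144 h, STC1 (-0.95), FOXO1 (0.55), TSC2 (0.49) and IGF2BP3 (-0.84) lost their calls, as did FOXO1 (0.51), TSC2 (0.36), DEPTOR (0.68) and IGF2BP3 (-0.86) without si-NT replicate 2. With no filter on low values STC1 (-1.32) also missed the limit (limma adjusted p = 0.0538). At 72 h the call of DEPTOR was lost without either si-NT library of 72 h or siRNA 3 replicate 2 (0.83, 1.03 and 0.87).

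**Figure D5:**
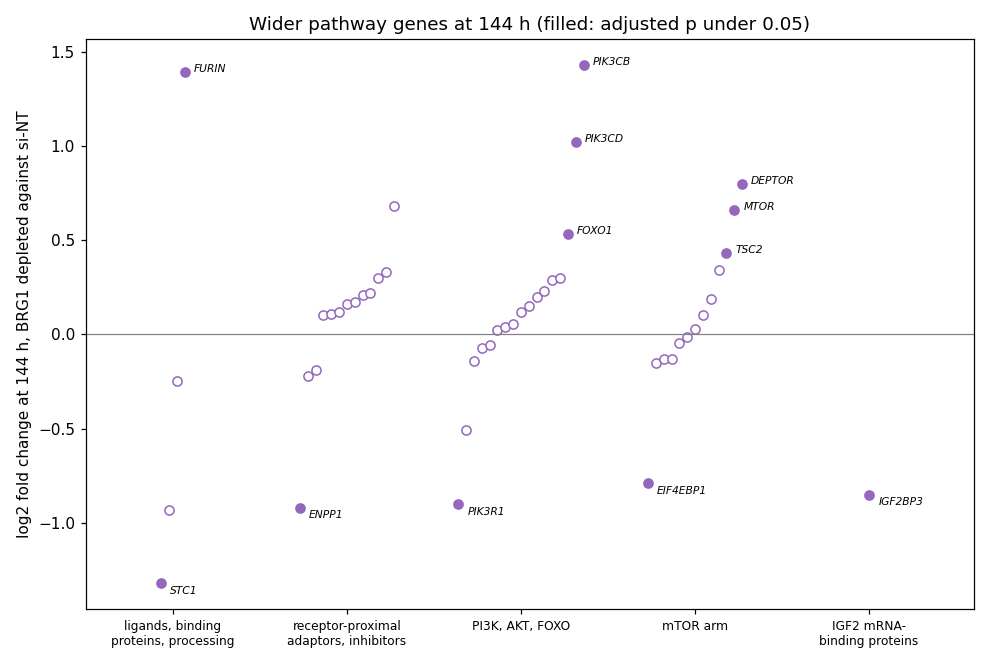
Log2 fold change at 144 h of the 48 tested genes in 5 lists of the wider pathway, on the log2(TPM + 1) scale, ordered by value within each list. Filled and named points passed an adjusted p of 0.05, 7 higher (PIK3CB at 1.43 the highest) and 5 lower (STC1 at -1.32 the lowest).

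The genes whose level followed that of IGFBP2 most closely over the 12 libraries were NBEAP2, a pseudogene (Pearson r = 0.959), CPNE2, a copine (r = 0.956), and SEMA3B-AS1, an antisense RNA (r = 0.954), of 16336 genes compared. The libraries share the same 4 groups, so these values describe the data and carry no test. Reads of a pseudogene or an antisense RNA may belong to its relative or its partner, depending on how they were counted.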

How the data were processed

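RNA-seq libraries were made from LNCaP total RNA with added ERCC spike-in RNA and a stranded mRNA kit. As the methods describe, the authors aligned reads to hg19 (GRCh37) with STAR (version 2.4.0j in the submitters' processing notes), counted them into GENCODE genes with featureCounts and deposited TPM, which sum to 999999 to 1000001 per library with the spike-ins included. The tool that made TPM is not given in the sources used here. The table has 63568 genes and 92 spike-ins, and 0 pairs of libraries were identical.

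Genes were kept where 2 or more libraries had at least 1 TPM (16337), and were fitted as log2(TPM + 1) with limma 3.58.1 (R 4.3.3, eBayes with a trend) in 4 groups, or in 6 to separate the siRNAs, with Benjamini-Hochberg adjustment over all genes. The procedure was tested on simulated data, with independent normal noise in each library and 200 of 16337 genes changed. That is a smaller share than was called at 144 h in the data. Differences between the siRNAs were not simulated, so the rates may not hold for the data. Of genes changed by 1 on the log2 scale it recovered 76% at 72 h and 73.5% at 144 h. Of those changed by 2 it recovered 93.5% and 94.5%. Smaller changes were not simulated. Since TPM holds no counts, the study's edgeR test was not used.

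The genes and the 5 wider lists were chosen with earlier results of these data known. Genes were named by rule: SMARCA4, the 9 genes, up to 4 genes per list with the largest called change at 144 h, ligands listed at 0, and the 3 closest to each gene called at 144 h. Alternatives were a pseudocount of 0.1, no filter, a mean TPM of at least 5, 3 other scalings, no trend, a time point alone, 6 groups, combined controls, a replicate block, and each library left out. Promoter windows came from GENCODE 44 lifted to GRCh37. The marker PECAM1 was not analysed here, and some listed genes are not reported here.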

Additional observations from a re-analysis of the deposited data

Results flagged for a closer look

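IGF2R in the 4 BRG1 depleted libraries at 144 h was flagged for the gap of 1 library relative to the group's range. There siRNA 3 replicate 1 at 72.20 TPM lay above the rest (67.58, 68.17 and 68.23 TPM), a gap of 0.859 of that range. The group itself was tight, with an SD of 2.12 TPM beside 3.26 TPM in si-NT cells at 144 h. IRS1 in the 4 BRG1 depleted libraries at 72 h was flagged too, with siRNA 2 replicate 2 at 3.12 TPM above 1.18, 1.23 and 1.25 TPM, a gap of 0.964 of the range. The same library was the highest of its group for IGF2R, INSR, IRS2, IGFBP2 and IGFBP3. A limit at the 95% level picks out some groups of 4 by chance alone.

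IGFBP3 moved in opposite directions at the time points, with every BRG1 depleted library below both controls at 72 h and above both at 144 h. The change at 144 h minus that at 72 h was 1.10 on the log2 scale (limma interaction, adjusted p = 0.302), so the difference did not pass the adjustment over all genes.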

How the results depend on the processing

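Counts of the 7 tested genes called moved as follows. At 72 h (1 in the report) the count was 0 with median-of-ratios size factors, quantile normalisation, spike-in scaling, no trend or the libraries of the time point alone, and 0 to 1 with 1 library left out. At 144 h (1) it was 0 with spike-in scaling, 2 with the libraries of the time point alone or 6 groups, 3 with the controls of both time points combined, and 1 to 2 with 1 library left out. Between 144 h and 72 h in BRG1 depleted cells (1, chosen after seeing the data) it was 0 with no filter or spike-in scaling, 2 with a mean TPM of at least 5, median-of-ratios size factors or the replicate block, and 0 to 2 with 1 library left out. The counts for the interaction, si-NT over time and the siRNA difference stayed at 0. Wider pathway genes called at 72 h (3) numbered 6 with median-of-ratios size factors, 0 with spike-in scaling, 1 with the time point alone, 7 with combined controls, and 1 without either si-NT library of 72 h or siRNA 3 replicate 2 (range 1 to 3). At 144 h (12) they numbered 5 with spike-in scaling and 19 with combined controls, and 8 to 14 with 1 library left out.

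Signs turned for genes that were not called. With spike-in scaling, IGF1R (-0.0051) and IGF2R (-0.20) at 144 h and INSR (-0.042) at 72 h did so. With 1 library left out, IGF1R at 72 h reached 0.12 (range -0.45 to 0.12), IGFBP5 at 72 h 0.029, 0.068 and 0.24 (-0.46 to 0.24), INSR at 72 h -0.0088 and -0.0091 (-0.0091 to 0.25), and INSR at 144 h 0.0099 and 0.032 (-0.084 to 0.032). Apart from spike-in scaling, whose shift of all genes is given in the report, the cause was not tested. The replicate number was not shown to pair libraries, since the deviations of like-numbered libraries in different conditions correlated at -0.23 to 0.30 (median -0.02). With the replicate block, none of the genes named here changed its call against si-NT, a further gene of the 7 was called between 144 h and 72 h in BRG1 depleted cells (2 in place of 1), and wider pathway genes called at 72 h numbered 2. With a library left out, an arm can hold 1 library, which is then assumed to vary like the other groups. TPM keeps no depth, so what counting error adds at low levels is unknown, and with 2 control libraries per time point the intervals are wide.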
